A study of Mus musculus with 12 samples.

Results

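Cytochrome P450 genes of families 1 to 4 were followed in fibrotic and control mouse livers. The group was chosen by name: every gene whose symbol in the array annotation is Cyp1, Cyp2, Cyp3 or Cyp4 followed by a letter and a number, without Cyp2e1. This gave 55 of the 18194 genes tested, with 3 genes in family 1, 34 in family 2, 5 in family 3 and 13 in family 4. Each gene was represented by the probe set, a group of short oligonucleotides, that had the highest mean over the 12 arrays. Levels of different probe sets were compared only to choose probe sets and named genes and to tell bright from dim ones. All 55 symbols were found in the RefSeq gene table, which lists 2 of them, Cyp2d13 and Cyp4f41-ps, as transcribed pseudogenes.

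The livers came from male Balb/c mice, obtained at an age of 8 weeks and treated after a period of acclimatization, in 4 groups of 3 arrays. Mice of shLFAR1+CCl4 received carbon tetrachloride (CCl4), a liver toxin that causes fibrosis, and a lentivirus carrying a hairpin that targets lnc-LFAR1, a liver long noncoding RNA. NC+CCl4 received CCl4 and a control lentivirus, shLFAR1 received olive oil and the hairpin virus, and NC received olive oil and the control virus. CCl4 was given at 5% in olive oil, 0.3 ml/kg, 3 times per week for 6 weeks in all, and the virus was injected through the tail vein after 2 weeks. The sources used here name no cell type to which either virus is restricted. The knockdown itself was not analysed here, because lnc-LFAR1 is named by no probe set.

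P450 enzymes hold a haem group in the membrane of the endoplasmic reticulum and use oxygen and electrons from NADPH to oxidize drugs, toxins, steroids and fatty acids. Families 1 to 3 carry most of the oxidation of foreign compounds in the liver, and family 4 mainly hydroxylates fatty acids and eicosanoids at the end of the chain. Nuclear receptors such as CAR, PXR and PPAR alpha, and the Ah receptor for family 1, set the transcription of many of them, and in mice several also differ between males and females. Cyp2e1, the enzyme known for turning CCl4 into its toxic radical, was left out by the rule. It fell by 0.49 log2 units in NC+CCl4 relative to NC (adjusted p = 0.0283).

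All values are log2 units, in which a difference of 1 is a doubling of the signal. No detection call comes with them. Low readings can therefore be background, and changes of genes that are dim in a group are understated. The mean of a member over all arrays was between 2.28 and 13.9, and 20 of the 55 members lay below the median of all genes, 5.59. In family 1 this was the case for 2 of 3 members, in family 2 for 11 of 34, in family 3 for 2 of 5 and in family 4 for 5 of 13. Closely related P450 genes can share probe sequences. Of the 55 probe sets used 8 carry an _s, _x or _a suffix, which marks probes that match several transcripts. For _a these are transcripts of the same gene, and for _s or _x they can belong to different genes.

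A pair of arrays stood apart from their groups. On the first principal component of all genes, shLFAR1+CCl4 replicate 3 was at 39.2, within the range of NC+CCl4 (34.8 to 48.8), whereas shLFAR1+CCl4 replicates 1 and 2 lay at -6.8 and -9.66 and the 6 oil arrays at -26.7 to -20.4. For Gapdh the 3′ probe set exceeded the 5′ one by 0.716 log2 units in NC+CCl4 replicate 1, and by -0.205 to 0.033 elsewhere. Markers of hepatocytes averaged 13.2 to 13.6 log2 units in every array and none of the 8 measured was called, at levels near the top of the array range. Of 8 macrophage markers 6 rose in NC+CCl4 relative to NC, with list means of 8.64 to 9.38 in NC+CCl4 and 7.22 to 7.53 in NC, and 6 of 8 markers of stellate cells and myofibroblasts rose, with list means of 8.25 to 8.48 in NC+CCl4 and 6.21 to 6.48 in NC. Of 4 neutrophil markers 2 rose, with list means of 5.53 to 6.02 in NC+CCl4 and 4.08 to 4.27 in NC. Markers of the pancreas averaged 5.44 to 6.04 in NC+CCl4 and 6.97 to 7.03 in NC, and 1 of 2 fell. Those of the small intestine averaged 5.84 to 5.99 in NC+CCl4 and 6.31 to 6.42 in NC, those of the kidney 2.87 to 3.23 in NC+CCl4 and 3.28 to 3.39 in NC, and 1 of 3 fell in each. The cholangiocyte list averaged 5.33 to 5.37 in NC+CCl4 and 4.85 to 5.06 in NC, with no marker called. In shLFAR1+CCl4 the means were 5.53 to 6.04 for neutrophils, 7.95 to 8.94 for macrophages and 6.87 to 8.21 for stellate cells. The part of these cells in the P450 values below was not tested, and in whole liver fewer cells of a type and less RNA per cell cannot be told apart.

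**Figure D1:**
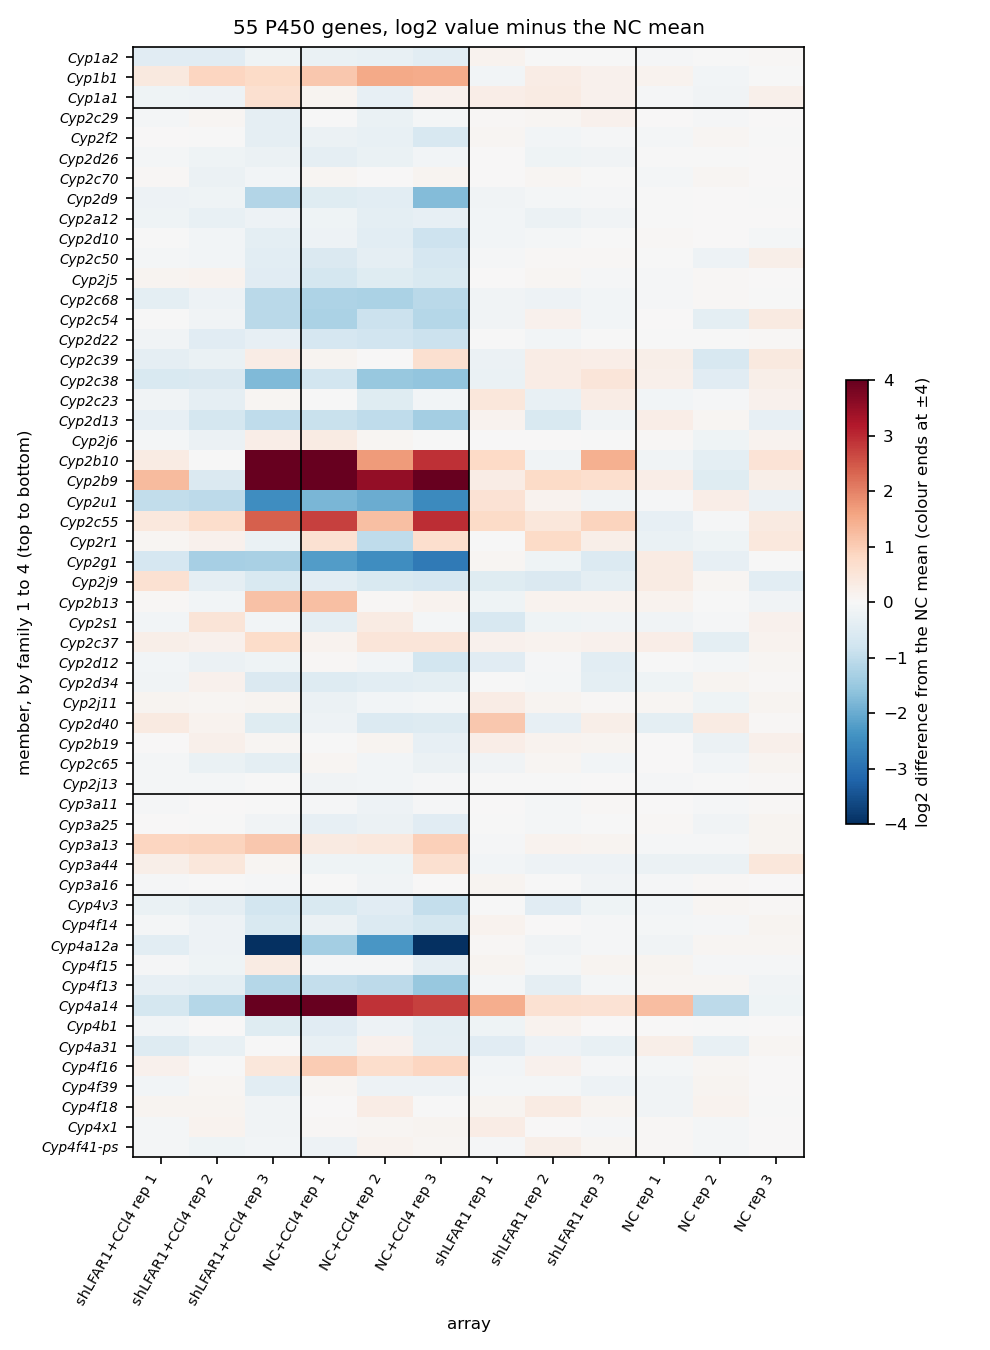
Log2 value of each of the 55 P450 genes (rows, by family) in each array (columns, by group) minus the mean of the 3 NC arrays, with colours ending at a difference of 4 in either direction. For Cyp2b9, Cyp2b10 and Cyp4a14, which are high, and Cyp4a12a, which is low, replicate 3 of shLFAR1+CCl4 resembles the NC+CCl4 arrays. In these genes replicates 1 and 2 lie close to the oil arrays. Other genes differ from this, and for Cyp1a2 and Cyp3a13 replicates 1 and 2 lie on the NC+CCl4 side.

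The comparison NC+CCl4 against NC shows the response of these genes to CCl4 under the control virus. In NC+CCl4 6 of the 55 members rose and 17 fell at an adjusted p under 0.05, which is 41.8% of the members, whereas 13.1% of all genes were called, 7.66% higher and 5.4% lower. The median change of the members was -0.15 log2 units and that of all genes -0.05. The members ranged from -2.68 to 4.31 log2 units. The arrays of both groups did not overlap for 31 members, 7 higher and 24 lower in NC+CCl4, where 29.6% of all genes had no overlap. Of the 23 called members 11 were called in each of the 12 fits that left out an array, and 12 lost their call in at least 1 of them. Fewer members were called without NC replicate 1 (13), NC replicate 2 (15), NC replicate 3 (13) or NC+CCl4 replicate 3 (15), and 28 were called without shLFAR1+CCl4 replicate 3, which lies outside this comparison but adds to the pooled spread. As that array stood apart from its group, leaving it out favours a smaller spread and more calls by the choice itself.

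In family 1, whose members are classic targets of the Ah receptor, Cyp1b1 rose, Cyp1a2 fell and Cyp1a1 was not called. Cyp1b1, which oxidizes oestrogens and procarcinogens and is known mainly from cells other than hepatocytes, read 5.56, 5.99 and 5.97 in the NC+CCl4 arrays, against 4.62, 4.37 and 4.46 in the NC arrays. The groups did not overlap and the rise was 2.56-fold (1.36 ± 0.17 log2 units, adjusted p = 0.000696; errors of changes are standard errors with 3 arrays in each group). Its other probe sets, which are dimmer, changed by 0.22 and -0.40 log2 units and were not called. Cyp1a2, the hepatic oxidase of caffeine and aromatic amines, read 12.09, 12.07 and 11.94 in NC+CCl4 and 12.33, 12.36 and 12.40 in NC. It fell by 0.33 ± 0.09 log2 units (adjusted p = 0.0256), a change that was lost without any of the NC arrays or NC+CCl4 replicate 3 (adjusted p = 0.0650 to 0.0831). Cyp1a1, the inducible aryl hydrocarbon hydroxylase, changed by -0.01 ± 0.21 log2 units.

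Family 2, with 34 of the 55 members, held most of the calls, 3 higher and 12 lower in NC+CCl4. This was 44.1% of the family, close to the 41.8% of all members. The Cyp2b genes, of which Cyp2b10 is the standard target of the phenobarbital receptor CAR, gave the highest increases. Cyp2b9, known in mice for higher expression in female liver, read 10.41, 8.84 and 9.68 in NC+CCl4, against 5.61, 4.84 and 5.56 in NC. Its 3 NC+CCl4 arrays all lay above 8, far from the NC arrays, and the rise was 19.8-fold (4.31 ± 1.00 log2 units, adjusted p = 0.0145), with an adjusted p of 0.0583 without NC replicate 2. Cyp2b10 read 10.14, 7.45 and 8.68 in NC+CCl4, against 5.61, 5.36 and 6.30 in NC. It rose 8.01-fold (3.00 ± 0.91 log2 units, adjusted p = 0.0489), close to the threshold, and the call was kept in 4 of the 12 fits without an array. The Cyp2b10 probe set used carries an _s suffix, and limma gave it an adjusted p of 0.0565 over all probe sets. The other Cyp2b10 probe sets changed by 2.99 and 2.05 log2 units and were not called (adjusted p = 0.0581 and 0.0807 over all probe sets). Without NC+CCl4 replicate 1, the array with the high 3′ to 5′ difference, Cyp2b10 changed by 2.31 log2 units (adjusted p = 0.158).

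The other members of the subfamily differed from these. Cyp2b13 read 6.21, 5.03 and 5.14 in NC+CCl4, against 5.14, 5.00 and 4.86 in NC, so that NC+CCl4 replicate 1 alone stood above the NC arrays by more than 1 log2 unit (0.46 ± 0.34 log2 units, adjusted p = 0.420). Cyp2b19, known from skin, lay between 2.60 and 3.18 in every array. The promoters of 3 of these genes, which share a cluster on mouse chromosome 7, are shown because Cyp2b9 and Cyp2b13 had nearly the same sequence and different changes. The windows hold the 250 bases before the annotated start in RefSeq, build GRCm38.p6, and lie on the plus strand at chr7:26173159-26173408 for Cyp2b9, chr7:26061245-26061494 for Cyp2b13 and chr7:25897408-25897657 for Cyp2b10. Capitals mark the 2 bases that differ between Cyp2b9 and Cyp2b13 and, in Cyp2b10, the letters GCGTG on either strand, which are the core bound by the Ah receptor.
Cyp2b9: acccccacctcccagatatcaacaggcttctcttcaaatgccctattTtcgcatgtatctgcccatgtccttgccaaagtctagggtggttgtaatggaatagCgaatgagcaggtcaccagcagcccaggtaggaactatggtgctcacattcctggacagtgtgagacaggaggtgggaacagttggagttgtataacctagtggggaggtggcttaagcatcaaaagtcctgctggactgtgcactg
Cyp2b13: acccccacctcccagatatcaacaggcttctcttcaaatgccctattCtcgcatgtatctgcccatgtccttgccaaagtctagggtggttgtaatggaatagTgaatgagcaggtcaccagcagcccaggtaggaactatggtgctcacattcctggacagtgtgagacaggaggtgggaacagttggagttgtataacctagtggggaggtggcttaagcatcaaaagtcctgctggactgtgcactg
Cyp2b10: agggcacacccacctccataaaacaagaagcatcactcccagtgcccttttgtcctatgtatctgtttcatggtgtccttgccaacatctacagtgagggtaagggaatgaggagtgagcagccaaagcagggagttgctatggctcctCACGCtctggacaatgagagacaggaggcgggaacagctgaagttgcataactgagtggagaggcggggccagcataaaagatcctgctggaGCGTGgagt
The windows of Cyp2b9 and Cyp2b13 were identical at 248 of 250 bases (99.2%), and that of Cyp2b10 was 71.0% identical to each of them over 262 aligned positions. GCGTG was in 28.2% of the 32851 promoter windows of the table and in those of 10 of the 42 members that have a window. TTCNNNGAA, the form of a STAT5 site, was in 7.02% of all windows and in 3 of 42 members. Both were searched on either strand, and a match is a description of the letters in the window.

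In family 1 the same letters were in the windows of Cyp1b1 and Cyp1a1, shown here with GCGTG on either strand in capitals, and not in that of Cyp1a2. Cyp1b1 lies on the minus strand at chr17:79715062-79715311 and Cyp1a1 on the plus strand at chr9:57697363-57697612.
Cyp1b1: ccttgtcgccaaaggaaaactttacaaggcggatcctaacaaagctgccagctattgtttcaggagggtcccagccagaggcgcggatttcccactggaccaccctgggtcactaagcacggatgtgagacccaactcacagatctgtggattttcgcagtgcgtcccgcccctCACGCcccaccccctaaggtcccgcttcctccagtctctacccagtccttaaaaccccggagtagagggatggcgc
Cyp1a1: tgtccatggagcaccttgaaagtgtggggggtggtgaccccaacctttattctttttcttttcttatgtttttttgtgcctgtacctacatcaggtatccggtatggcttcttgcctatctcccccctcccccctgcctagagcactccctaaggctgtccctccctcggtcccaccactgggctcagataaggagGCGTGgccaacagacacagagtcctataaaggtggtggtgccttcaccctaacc
Of these genes Cyp1b1 rose in NC+CCl4 and Cyp1a1 was not called, as given above.

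Of 11 Cyp2c genes 1 rose and 4 fell in NC+CCl4. Cyp2c55, which is induced through CAR and PXR and hydroxylates arachidonic acid, read 8.35, 6.80 and 8.55 in NC+CCl4, against 5.28, 5.57 and 5.96 in NC, and rose 4.93-fold (2.30 ± 0.50 log2 units, adjusted p = 0.00993). Cyp2c68 read 10.57, 10.53 and 10.71 in NC+CCl4, against 11.74, 11.86 and 11.80 in NC, with little spread in either group. It fell by 1.19 ± 0.17 log2 units (adjusted p = 0.00158). Cyp2c38 fell by 1.28 ± 0.34 log2 units (adjusted p = 0.0263), Cyp2c54 by 1.09 ± 0.25 (adjusted p = 0.0143) and Cyp2c50 by 0.54 ± 0.12 (adjusted p = 0.0124). In mice Cyp2c38, Cyp2c50 and Cyp2c54 are known as arachidonic acid epoxygenases or hydroxylases. Cyp2c29, an epoxygenase read at 13.06 to 13.30 in NC+CCl4 and 13.29 to 13.35 in NC, and Cyp2c70, which makes muricholic acids, changed by -0.12 and 0.07 log2 units and were not called. Cyp2c38 lost its call without NC replicate 1, NC replicate 3, NC+CCl4 replicate 2 or NC+CCl4 replicate 3 (adjusted p = 0.0686 to 0.0934), Cyp2c54 without NC replicate 1 or 3 (adjusted p = 0.0504 and 0.0613) and Cyp2c50 without NC replicate 3 (adjusted p = 0.0523).

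The 8 Cyp2d genes all had a negative change in NC+CCl4, and 3 of them passed the test. Cyp2d22 read 9.86, 9.75 and 9.66 in NC+CCl4, against 10.51, 10.50 and 10.57 in NC. No NC+CCl4 array came near the NC arrays and it fell by 0.77 ± 0.09 log2 units (1.71-fold, adjusted p = 0.000623). Cyp2d13, annotated as a transcribed pseudogene, fell by 1.09 ± 0.23 log2 units (adjusted p = 0.00813) and Cyp2d10 by 0.48 ± 0.13 (adjusted p = 0.0334). Second probe sets of Cyp2d22 and Cyp2d13 fell as well, by 0.49 and 0.85 log2 units. Cyp2d10 was called in 8 of the 12 fits without an array. Cyp2d9, the testosterone hydroxylase of male mouse liver, read 12.59, 12.66 and 11.34 in NC+CCl4, against 13.07, 13.10 and 13.07 in NC, so that replicate 3 lay more than 1 log2 unit below the other CCl4 arrays. Its change was -0.88 ± 0.31 log2 units (adjusted p = 0.0841). Cyp2d26 read 12.61, 12.71 and 12.84 in NC+CCl4, against 12.96, 12.94 and 12.99 in NC, and just missed the threshold (-0.24 ± 0.08 log2 units, adjusted p = 0.0525).

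Among the single genes of other subfamilies the deepest fall was that of Cyp2g1, known as a P450 of the olfactory mucosa. It read 4.84, 4.59 and 4.27 in NC+CCl4, against 7.41, 6.77 and 7.07 in NC. The groups did not overlap, and the fall was 5.74-fold (-2.52 ± 0.23 log2 units, adjusted p = 0.000126). Cyp2u1, which hydroxylates long-chain fatty acids, read 5.89, 5.71 and 5.16 in NC+CCl4, against 7.68, 7.98 and 7.47 in NC, and fell 4.34-fold (-2.12 ± 0.35 log2 units, adjusted p = 0.00283). A second and dimmer Cyp2u1 probe set changed by -0.48 log2 units and was not called. Cyp2j5, an arachidonic acid epoxygenase of liver and kidney, fell by 0.61 ± 0.13 log2 units (adjusted p = 0.00943), and the other 4 Cyp2j genes were not called. Cyp2f2, which activates naphthalene in mouse airways, fell by 0.40 ± 0.12 log2 units (adjusted p = 0.0406) and Cyp2a12, a steroid and bile acid hydroxylase, by 0.30 ± 0.07 (adjusted p = 0.0181). The calls of these last genes were weak, as Cyp2f2 was called in 5 and Cyp2a12 in 8 of the 12 fits without an array. Cyp2r1, a vitamin D 25-hydroxylase, and Cyp2s1 were not called.

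**Figure D2:**
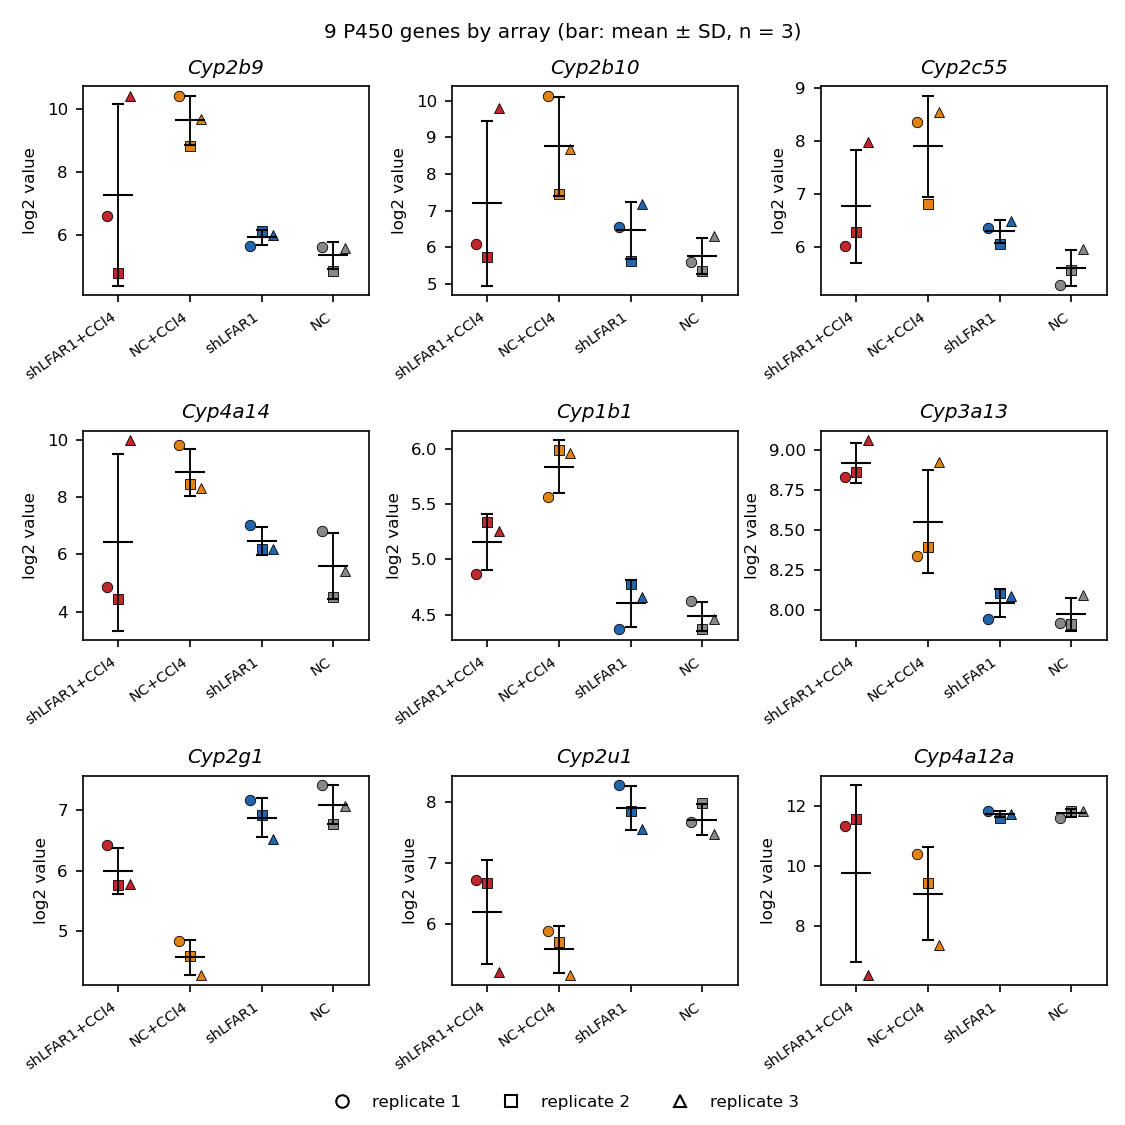
Log2 values of 9 P450 genes in each array, by group from left to right, with symbols for the replicate number and bars for the mean ± SD of 3 arrays. Cyp2g1 read 5.76 to 6.42 in shLFAR1+CCl4 and 4.27 to 4.84 in NC+CCl4, with no overlap, whereas for Cyp2b9, Cyp2b10 and Cyp4a14 the shLFAR1+CCl4 array of replicate 3 lies apart from the other 2.

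In family 3, whose enzymes oxidize the widest range of drugs, Cyp3a13 rose, Cyp3a25 fell and 3 of 5 members were not called. Cyp3a13 read 8.34, 8.40 and 8.92 in NC+CCl4, against 7.92, 7.91 and 8.10 in NC (0.58 ± 0.15 log2 units, 1.49-fold, adjusted p = 0.0218). It lost the call without NC replicate 1, NC replicate 2 or NC+CCl4 replicate 3 (adjusted p = 0.0541 to 0.0791). Cyp3a25 fell by 0.34 ± 0.08 log2 units (adjusted p = 0.0150) and lost the call without NC replicate 1, NC replicate 3 or NC+CCl4 replicate 3 (adjusted p = 0.0529 to 0.0641). Cyp3a11, the main PXR target of the mouse family, read 13.70 to 13.84 in NC+CCl4 and 13.84 to 13.92 in NC, near the upper end of the array's range, and was not called (-0.10 ± 0.06 log2 units). Cyp3a44 and Cyp3a16, which are known from female liver, read 4.40 to 5.22 and 2.18 to 2.32 in NC+CCl4, against 4.34 to 5.04 and 2.26 to 2.35 in NC, and were not called.

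In family 4 the Cyp4f genes, which inactivate leukotrienes and other eicosanoids, moved in both directions. Cyp4f16 read 5.96, 5.64 and 5.80 in NC+CCl4, against 4.85, 5.01 and 4.94 in NC, and rose 1.83-fold (0.87 ± 0.14 log2 units, adjusted p = 0.00253). Cyp4f13 read 8.16, 8.07 and 7.60 in NC+CCl4, against 9.20, 9.20 and 8.98 in NC, and fell 2.28-fold (-1.19 ± 0.20 log2 units, adjusted p = 0.00345). Neither gene had overlapping groups in these probe sets. A second and dimmer Cyp4f16 probe set changed by 0.65 log2 units and was not called. Cyp4f14 fell by 0.50 ± 0.14 log2 units (adjusted p = 0.0375, called in 4 of the 12 fits without an array) and Cyp4f15 changed by -0.15 ± 0.13. Cyp4v3, the mouse counterpart of human CYP4V2, a fatty acid hydroxylase, fell by 0.68 ± 0.15 log2 units (adjusted p = 0.0112).

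The Cyp4a genes held 2 of the largest differences of the family, and neither passed the test. Cyp4a14, an omega-hydroxylase of fatty acids and a standard target of PPAR alpha, read 9.81, 8.47 and 8.33 in NC+CCl4, against 6.81, 4.53 and 5.41 in NC (3.29 ± 1.13 log2 units, adjusted p = 0.0759). Cyp4a12a, which is known from male liver and makes 20-HETE, read 10.40, 9.44 and 7.39 in NC+CCl4, against 11.61, 11.84 and 11.83 in NC (-2.68 ± 1.09 log2 units, adjusted p = 0.131). For both genes no NC+CCl4 array overlapped the NC arrays. The spread that enters these tests is pooled over the groups, and without shLFAR1+CCl4 replicate 3 both were called, at the same changes, with adjusted p of 0.000855 and 0.00374. That array was left out because it stood apart, which by itself favours a smaller pooled spread and more calls. Cyp4a12a also varied within NC+CCl4, with an SD of 1.54 log2 units. These calls are therefore not taken as results.

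The members were also counted by what is known of their control, where 7.66% of all genes were called higher and 5.4% lower. These lists are parts of the 55 members, of which 6 rose and 17 fell (41.8% called). They are too short to be set apart from the members as a whole. Of 8 measured targets of CAR and PXR 3 rose (Cyp2b10, Cyp2c55, Cyp3a13), 2 fell (Cyp2c50, Cyp2c54) and 3 were not called. Of 5 measured genes known for higher levels in female liver Cyp2b9 and Cyp2b10 rose and none fell, and the 2 measured genes of male liver, Cyp4a12a and Cyp2d9, had the negative changes given above and were not called. Of 5 genes known for higher levels around the central vein, the zone that CCl4 injures, 3 fell (Cyp1a2, Cyp2c50, Cyp2c54) and none rose. Of 6 genes known mainly outside hepatocytes Cyp1b1 rose and Cyp2g1 fell. Neither measured target of PPAR alpha, Cyp4a14 and Cyp4a31, was called. The Cyp4a31 probe set used changed by -0.16 log2 units. A second and dimmer one changed by 1.45 and was not called. It read 4.83, 3.31 and 4.28 in NC+CCl4, against 2.72, 2.72 and 2.63 in NC. The lists of this paragraph overlap and were chosen with earlier results of these data known.

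Genes around the P450 system also changed in both directions. Of 24 receptors and factors that control P450 genes 3 rose and 2 fell in NC+CCl4 relative to NC. This was 20.8% of the list, where 13.1% of all genes were called. In the lists given below for haem supply and electron transfer and for other P450 families, 20% and 33.3% were called. Nr1i3, which encodes CAR, fell by 0.97 ± 0.14 log2 units (adjusted p = 0.00167) and Ppara, which encodes PPAR alpha, by 0.69 ± 0.21 (adjusted p = 0.0498). Nfe2l2, the oxidative stress factor Nrf2, rose by 1.13 ± 0.18 log2 units (adjusted p = 0.00222), the oestrogen receptor Esr1 by 0.76 ± 0.11 (adjusted p = 0.00180) and Arnt, the partner of the Ah receptor, by 0.45 ± 0.12 (adjusted p = 0.0293). Nr1i2 for PXR, Ahr and Hnf4a changed by 0.35 ± 0.24, 0.53 ± 0.24 and -0.27 ± 0.13 log2 units and were not called. Of 15 genes for haem supply and electron transfer Urod rose by 0.65 log2 units, Fech and Pgrmc1 fell by 0.42 and 0.23 log2 units, and 12 were not called. Of 18 genes of the other P450 families, Cyp2e1 included, 2 rose and 4 fell, among them Cyp39a1 (2.64 ± 0.52 log2 units, adjusted p = 0.00674) and Cyp7b1 (-4.68 ± 0.79, adjusted p = 0.00313), both oxysterol hydroxylases.

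The comparison shLFAR1+CCl4 against NC+CCl4 sets the hairpin virus beside the control virus in CCl4-treated livers. A single member of 55, Cyp2g1, was called, where 0.291% of all genes were called, 0.176% higher and 0.115% lower. Cyp2g1 read 6.42, 5.76 and 5.78 in shLFAR1+CCl4, against 4.84, 4.59 and 4.27 in NC+CCl4. It was 2.68-fold higher in shLFAR1+CCl4 (1.42 ± 0.23 log2 units, adjusted p = 0.0290) in all 3 arrays, replicate 3 included. The call was lost without NC replicate 3, NC+CCl4 replicate 3, shLFAR1 replicate 2 or shLFAR1+CCl4 replicate 1 or 2, with adjusted p of 0.0551, 0.0854, 0.0564, 0.141 and 0.0898. Without NC+CCl4 replicate 2 it was called together with Cyp2d22, Cyp3a25 and Cyp4f16, which made 4 members. The members had a median difference of 0.10 log2 units, against 0.01 for all genes, and 16 of the 55 (29.1%) had an unadjusted p under 0.05, where 14.2% of all genes did.

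The members next to the threshold were Cyp2d22 (0.47 ± 0.09 log2 units, adjusted p = 0.0662), Cyp4f16 (-0.68 ± 0.14, adjusted p = 0.0726), Cyp2j5 (0.53 ± 0.13, adjusted p = 0.0970) and Cyp1b1 (-0.68 ± 0.17, adjusted p = 0.0984). Cyp1b1 read 4.87, 5.34 and 5.26 in shLFAR1+CCl4 and 5.56, 5.99 and 5.97 in NC+CCl4, with no overlap. Cyp2d22 read 10.39, 10.07 and 10.21 in shLFAR1+CCl4 and 9.86, 9.75 and 9.66 in NC+CCl4, again with no overlap. In all 8 members had groups that did not overlap, 6 higher and 2 lower in shLFAR1+CCl4, where 12.3% of all genes had no overlap. A second Cyp2j5 probe set was called, at 1.05 ± 0.17 log2 units (adjusted p = 0.0391 over all probe sets). The second Cyp4f16 probe set differed by -0.07 log2 units and was not called. The comparison shares the NC+CCl4 arrays with that of NC+CCl4 against NC.

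The members with the largest CCl4 response were split within shLFAR1+CCl4. Cyp2b9 read 6.59, 4.76 and 10.44 in shLFAR1+CCl4 and 10.41, 8.84 and 9.68 in NC+CCl4 (-2.38 ± 1.00 log2 units, adjusted p = 0.307). Cyp4a14 read 4.87, 4.44 and 9.98 in shLFAR1+CCl4 and 9.81, 8.47 and 8.33 in NC+CCl4 (-2.44 ± 1.13, adjusted p = 0.352). Cyp4a12a read 11.33, 11.56 and 6.38 in shLFAR1+CCl4 and 10.40, 9.44 and 7.39 in NC+CCl4 (0.68 ± 1.09, adjusted p = 0.851). In each of these genes replicate 3 of shLFAR1+CCl4 was at or beyond the end of the NC+CCl4 arrays and replicates 1 and 2 were near the oil arrays. The SD over the shLFAR1+CCl4 arrays reached 3.08 log2 units for Cyp4a14 and was above 1 for 5 members, where 1.15% of all genes had such an SD. In NC+CCl4 2 members had an SD above 1 and in shLFAR1 none, and the count in NC was 1.

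Without shLFAR1+CCl4 replicate 3, a fit chosen because that array stood apart, 17 members were called in shLFAR1+CCl4 against NC+CCl4, where 7.29% of all genes were called. That array lay within the range of NC+CCl4 on the first principal component. Leaving it out therefore favours a larger difference, a smaller spread and more calls by the choice itself. Lower in shLFAR1+CCl4 were Cyp4a14 (-4.22 ± 0.57 log2 units, adjusted p = 0.00105), Cyp2b9 (-3.97 ± 0.50, adjusted p = 0.000628), Cyp2b10 (-2.86 ± 0.62, adjusted p = 0.0153), Cyp2c55 (-1.75 ± 0.40, adjusted p = 0.0210), Cyp4f16 (-0.80) and Cyp1b1 (-0.74). Higher in shLFAR1+CCl4 were Cyp4a12a (2.37 ± 0.58, adjusted p = 0.0283), Cyp2g1 (1.53 ± 0.26, adjusted p = 0.00386), Cyp2u1 (1.10 ± 0.24, adjusted p = 0.0153), Cyp2c54 (1.02 ± 0.19, adjusted p = 0.00586), Cyp2c68 (0.91 ± 0.09, adjusted p = 0.000121), Cyp4f13, Cyp2j5, Cyp2d22, Cyp2c50, Cyp2f2 and Cyp3a25, the last 6 by 0.34 to 0.83 log2 units. Which of the 3 arrays shows the effect of the hairpin virus on these genes cannot be told apart here, since the level of lnc-LFAR1 was not measured on the arrays.

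**Figure D3:**
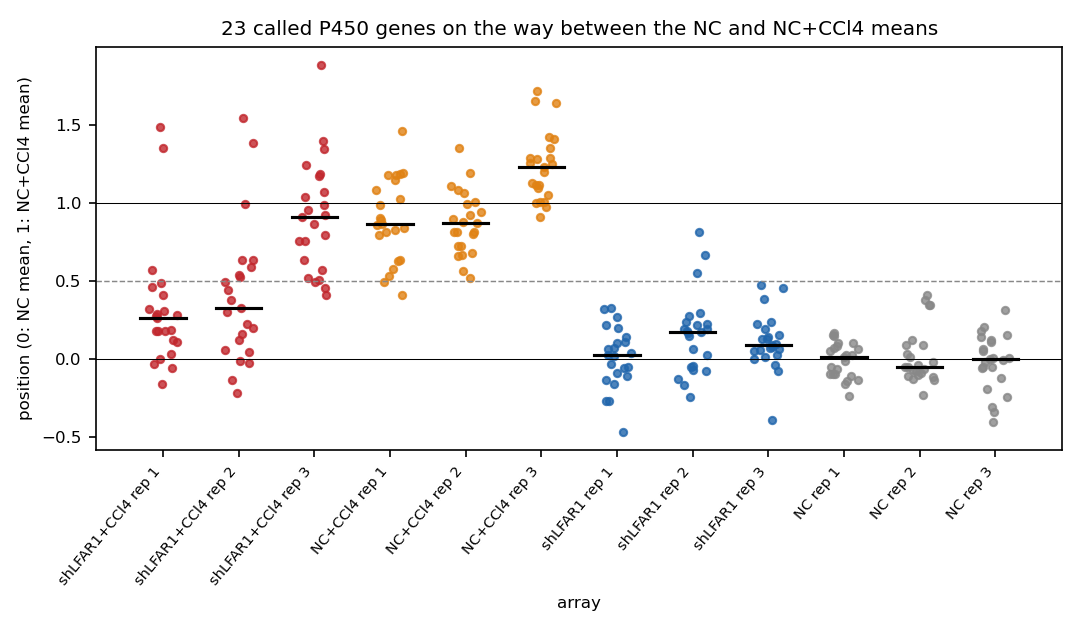
Position of each of the 23 members called in NC+CCl4 against NC between the NC mean (0) and the NC+CCl4 mean (1), in log2 units, for every array, with the median of each array as a bar. The genes were chosen by the difference between these means, so the plot is a description, and the medians were 0.262, 0.327 and 0.909 in shLFAR1+CCl4 replicates 1, 2 and 3.

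The position of an array between the NC and NC+CCl4 means was also counted gene by gene. Of the 23 members called in NC+CCl4 against NC, 3, 8 and 20 lay nearer to the NC+CCl4 mean in replicates 1, 2 and 3 of shLFAR1+CCl4. Over all 2375 genes called in that comparison the shares were 23.2%, 23.6% and 80.6%. In replicate 1 of shLFAR1 none of the 23 members was nearer to the NC+CCl4 mean, in replicate 2 there were 3 and in replicate 3 none. Over the 2375 called genes the shares in these arrays were 7.07%, 10.9% and 5.68%.

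The comparison shLFAR1+CCl4 against shLFAR1 gives the CCl4 response under the hairpin virus and shares no array with NC+CCl4 against NC. The called member was Cyp3a13, 1 of 55, where 0.407% of all genes were called, 0.324% higher and 0.0824% lower. The groups did not overlap for 15 members, 5 higher and 10 lower in shLFAR1+CCl4, where 20.1% of all genes had no overlap. Cyp3a13 read 8.83, 8.86 and 9.06 in shLFAR1+CCl4, against 7.94, 8.11 and 8.09 in shLFAR1, and was 1.83-fold higher (0.87 ± 0.15 log2 units, adjusted p = 0.0210). The 3 shLFAR1+CCl4 arrays lay close together, with replicate 3 near the others. Without shLFAR1 replicate 1, 2 or 3 or shLFAR1+CCl4 replicate 3 the adjusted p was 0.135, 0.0665, 0.0884 and 0.0554. Cyp2u1 read 6.72, 6.67 and 5.22 in shLFAR1+CCl4, against 8.27, 7.85 and 7.56 in shLFAR1 (-1.69 ± 0.35 log2 units, adjusted p = 0.0647), and was called without shLFAR1+CCl4 replicate 1 (-1.95 log2 units, adjusted p = 0.0477). Cyp1a2 read 11.92, 11.91 and 12.20 in shLFAR1+CCl4, against 12.51, 12.35 and 12.36 in shLFAR1 (-0.40 ± 0.09, adjusted p = 0.0745), and was the only called member without shLFAR1+CCl4 replicate 3 (-0.50 ± 0.07, adjusted p = 0.00923). The members had a median change of -0.10 log2 units, against -0.03 for all genes, and 10 of 55 (18.2%) had an unadjusted p under 0.05, where 10.8% of all genes did. With the replicate number as a block over all arrays, Cyp3a13, Cyp2u1 and Cyp2g1 were called (adjusted p = 0.0120, 0.0113 and 0.0270). That fit pairs these groups by number too, although same-number arrays correlated in their deviations at only 0.087, -0.015 and 0.034.

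Set beside the response under the control virus, the changes were smaller for most of the large responders. These genes were chosen by their change under the control virus, and such a choice by itself favours smaller values in the other comparison. Cyp2b9 changed by 1.35 ± 1.00 log2 units under the hairpin virus and 4.31 ± 1.00 under the control virus. Cyp2c55 changed by 0.47 ± 0.50 and Cyp1b1 by 0.55 ± 0.17 log2 units under the hairpin virus, and by 2.30 ± 0.50 and 1.36 ± 0.17 under the control virus. Cyp2u1 and Cyp2c38 changed by -1.69 ± 0.35 and -1.16 ± 0.34 log2 units under the hairpin virus, next to -2.12 ± 0.35 and -1.28 ± 0.34 under the control virus. These values under the hairpin virus rest in part on shLFAR1+CCl4 replicate 3. Without it Cyp2b9 changed by -0.24 and Cyp2c55 by -0.14 log2 units, so that their direction turned, and Cyp2c38 changed by -0.77, Cyp2u1 by -1.20 and Cyp1b1 by 0.50 log2 units. The difference between both responses was tested as an interaction. No member was called, where 0.022% of all genes were called, and 11 of the 55 had an unadjusted p under 0.05, where 9.51% of all genes did. Cyp2g1 had a difference of 1.63 ± 0.33 log2 units (adjusted p = 0.168), and was the 1 member called in the fit with the replicate number as a block (1.63 ± 0.21, adjusted p = 0.0410). Without shLFAR1+CCl4 replicate 3, 10 members were called in the interaction, where 3.19% of all genes were called. The limit given above for leaving out that array holds here too. The called members were Cyp2b10, Cyp2b9, Cyp2c55, Cyp4a14 and Cyp4f16 with a negative difference and Cyp2c54, Cyp2c68, Cyp2g1, Cyp2j5 and Cyp4f13 with a positive one.

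**Figure D4:**
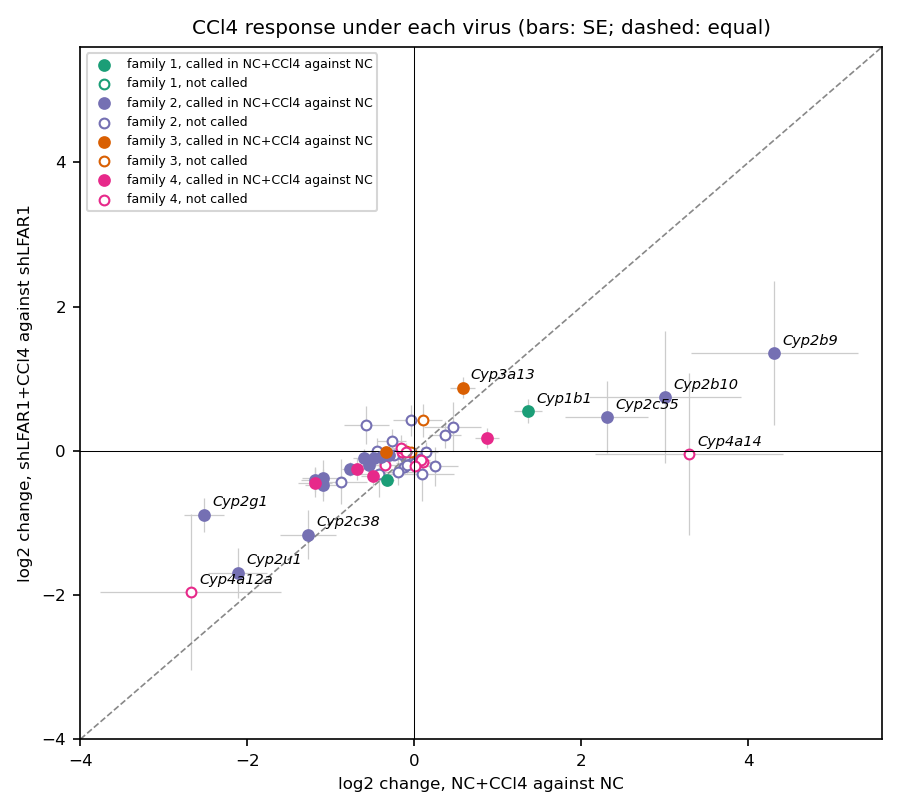
Log2 change of each P450 gene in NC+CCl4 against NC (x axis) and in shLFAR1+CCl4 against shLFAR1 (y axis), 2 comparisons that share no array, with standard errors as bars and filled points for members called on the x axis. Cyp2b9, Cyp2b10, Cyp2c55 and Cyp4a14 lie below the dashed line of equal change, Cyp2u1 and Cyp2c38 near it, and Cyp3a13 above it.

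The comparison shLFAR1 against NC asks what the hairpin virus did in livers that received oil. No member was called by limma, where 0% of all genes were called. At an unadjusted p under 0.05 there were 504 genes, of which Cyp2a12 was the only member (-0.16 ± 0.07 log2 units). The members ranged from -0.48 to 0.89 log2 units, with a median of 0.01. Cyp4a14, at the upper end, read 7.04, 6.20 and 6.17 in shLFAR1 and 6.81, 4.53 and 5.41 in NC, with overlapping groups. The groups did not overlap for 7 of 55 members, 3 higher and 4 lower in shLFAR1, where 10.8% of all genes had no overlap.

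Over the 4 comparisons 23 members were called in at least 1 comparison and 32 in none, and 14 of these 32 lay above the median of all genes. Among these 32 were Cyp3a11, Cyp2c29 and Cyp2c70. A member that was not called is not shown to be unchanged. Of the receptors and factors, Nfe2l2 was lower in shLFAR1+CCl4 than in NC+CCl4 (-1.13 ± 0.18 log2 units, adjusted p = 0.0206) and Esr1 was higher in shLFAR1+CCl4 than in shLFAR1 (0.80 ± 0.11, adjusted p = 0.00734), and no gene of the haem and electron transfer list or of the other P450 families was called in these 2 comparisons.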

How the data were processed

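RNA of 12 liver samples was hybridized to Affymetrix mouse expression arrays. The files hold deposited log2 values, already summarized and normalized by the authors, with a method not given in the sources used here. Nothing further was subtracted, floored or normalized. Of 45101 probe sets 34958 had 1 gene symbol in the platform annotation, and the brightest on average stood for each of 18194 genes.

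A model with 4 groups was fitted to all genes with limma 3.58.1 in R 4.3.3 (lmFit, then eBayes with trend, 8 residual degrees of freedom). Two-sided p-values were adjusted by Benjamini-Hochberg over all 18194 genes, with 0.05 as the threshold for a call. Replicates are biological per the labels, which do not say whether an array holds 1 mouse or a pool of the 10 in a group, so p reflects variation between these samples. Precision is limited by the number of arrays. The fits were tested on simulated data. Promoter windows were compared with Biopython 1.88, and figures drawn with matplotlib 3.10.9.

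Named were the 5 members of each family with the highest mean, called members, Cyp2u1 and listed regulators. Cyp4a14, Cyp2b13, Cyp2b19 and other members that were not called were added after their values were seen. The members and gene lists were chosen with earlier results of these data known. In NC+CCl4 and shLFAR1+CCl4, arrays with the same replicate number correlated in their deviations at 0.126, 0.229 and 0.192, against -0.234 to 0.093 for other numbers. An alternative fit therefore took the replicate number as a block, on the evidence of the data only. The block covered all 4 groups, although same numbers correlated at only -0.135 to 0.15 in the other comparisons. Other alternatives were array weights, other variance settings, probe set choices, quantile normalization, a floor, left-out arrays and the t-test of the study.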

Additional observations from a re-analysis of the deposited data

Results flagged for a closer look

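Probe sets whose annotation names several genes were left out of the comparisons above. Among these, 4 name only P450 genes of families 1 to 4. In NC+CCl4 against NC 1 of them was higher and 1 lower, with p adjusted over all 45101 probe sets, of which 8.48% were called. The 4 changes lay between -1.71 and 1.59 log2 units. No gene can be named for them, and none was called in the other comparisons.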

How the results depend on the processing

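The 23 members called in NC+CCl4 against NC were counted again under the other settings. Their number was 3 with the methods' t-test after Benjamini-Hochberg, 13 to 28 when an array was left out, and within 1.5 times of 23 under every other setting. Cyp2g1, Cyp2d22 and Cyp2c68 were called under all of their 25 settings, and Cyp2b10, Cyp2f2 and Cyp4f14 lost their call under 15, 13 and 12 of 25. With a floor at 4 log2 units Cyp3a16 has no value.

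For shLFAR1+CCl4 against NC+CCl4 the single call became 10 with array weights, 2 over genes above the median level, 2 by the methods' t-test (unadjusted p under 0.05 and a fold over 1.6), and 0 by that test after Benjamini-Hochberg, with only the groups compared or with the floor. It was 0 to 17 when an array was left out. For shLFAR1+CCl4 against shLFAR1 it became 3 with array weights or by the methods' t-test, 0 by that test after Benjamini-Hochberg or with the floor, and 0 to 2 when an array was left out. In shLFAR1 against NC the methods' t-test gave 1 member. The interaction gave 6 with array weights and 0 to 10 when an array was left out. Without both NC+CCl4 array 1 and shLFAR1+CCl4 array 3, a setting chosen after seeing the data, the counts were 18 in shLFAR1+CCl4 against NC+CCl4, 13 in the interaction and 3 in shLFAR1+CCl4 against shLFAR1. The share of all genes called moved as well. In shLFAR1+CCl4 against NC+CCl4 it was 0.291% with all arrays and 7.29% without shLFAR1+CCl4 replicate 3. In the interaction it was 0.022% and 3.19%, and in shLFAR1+CCl4 against shLFAR1 0.407% and 0.462%. The counts in this section are therefore not results about P450 genes alone. The causes of these differences were not tested.

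With the replicate number as a block, shLFAR1+CCl4 against NC+CCl4 kept a count of 1, NC+CCl4 against NC had 24, shLFAR1+CCl4 against shLFAR1 had 3 and the interaction had 1. The block covered all 12 arrays, and outside shLFAR1+CCl4 and NC+CCl4 the samples share only a number.

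Without shLFAR1+CCl4 replicate 3 the direction turned for 11 of 55 members in shLFAR1+CCl4 against shLFAR1, among them Cyp2b9, Cyp2b10 (0.74 with all arrays, -0.56 without) and Cyp2c55. In NC+CCl4 against NC it turned for 3 of the named members, none of them called. Cyp1a1 changed by 0.045 log2 units with array weights and by -0.11 to 0.14 when an array was left out, above 0 without NC replicate 3 or NC+CCl4 replicate 2. Cyp3a16 changed by 0.0057 with quantile normalization and by -0.064 to 0.0070 when an array was left out, above 0 without NC+CCl4 replicate 2. Cyp3a44 changed by -0.17 to 0.33 when an array was left out, below 0 without NC replicate 1, NC replicate 2 or NC+CCl4 replicate 3.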
